A study of Mus musculus with 6 samples.

Results

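The 9 genes described here encode proteins of DNA replication and mitosis: Orc2, Mcm3, Mcm7, Timeless, Mybl2, Smc4, Kif11, Kif23 and Bub1b. They were taken by name from a two-colour microarray series of mouse kidney as genes expected to be dim in resting tissue, and they were selected on spot brightness and dye ratios of these same arrays seen earlier. All 25 probes of these genes were followed, out of 15114 probes that name 1 gene and 23040 spots in all, and the 9 genes are 9 of 9107 named on the array. The brightness values and ratios below are therefore a description and support nothing by themselves.

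RNA came from whole kidneys of male Swiss albino mice aged 8 to 10 weeks, with 4 mice in a group, killed 24 h after the drug. The groups received amodiaquine at 120 mg/kg, sulfadoxine at 300 mg/kg followed by pyrimethamine at 15 mg/kg (SP), amodiaquine and SP together at these doses, or the solvent DMSO as vehicle. No genetic change is named for any group, and the labels do not say whether RNA of the mice was pooled for an array. Amodiaquine is a 4-aminoquinoline antimalarial, and SP combines antifolates directed at the parasite's folate synthesis and reduction. Each array set treated RNA directly against vehicle RNA in the dyes Cy5 and Cy3, with the treated RNA labelled Cy5 on replicate 1 and Cy3 on replicate 2. The 6 deposited files held 4 distinct scans, because both SP files were readings of 1 scan, as were both amodiaquine+SP files. Each of these scans then carries opposite directions by its labels, and ratios are therefore given as Cy5 over Cy3, except where amodiaquine is named as the numerator. The precision of every value is limited by the number of scans, 2 with amodiaquine alone, 1 with SP and 1 with both. Nothing in the labels says that replicates came from separate mice, so any spread between them may be technical.

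A cell copies its genome once per division. The origin recognition complex marks the start sites, the MCM ring is loaded there and later unwinds the double helix, and proteins that travel with the replication fork keep the copying steady. In mitosis, condensin folds the chromosomes, kinesin motors build and finally divide the spindle, and a checkpoint holds the cell until every chromosome is attached. Most cells of an adult kidney rest outside the cell cycle, and transcripts of these genes are known to be scarce in resting cells and abundant in dividing ones.

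Spots were measured in 48 blocks of 20 rows and 24 columns, and in many blocks the measuring grid had been laid 1 row or column off in 1 dye or in both. A block was counted in register when neither dye was displaced and the ranks of the dyes correlated at 0.5 or more. The 25 probes lay in 20 blocks, of which 10 were in register in amodiaquine replicate 1, 15 in amodiaquine replicate 2, 15 in SP and 10 in amodiaquine+SP. These blocks held 12, 18, 20 and 13 of the 25 probes. Each displaced reading was also moved back by its measured shift, which is called moved into frame below. Values called as deposited keep each spot at its deposited position. Ratios were computed here from the intensities unless the authors' values are named. Between pairs of files of 1 scan, this shift equalled the offset of identical foreground values in 191 of 192 dye-blocks.

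Brightness is given as a percentile, from 0 to 100, of the background-corrected intensity among all spots of the same scan and dye. A corrected intensity of 0 ranks between 12 and 17, since many spots tie there. Brightness of different probes depends on the probe as well as on the RNA, and it is not a level that can be set between genes. In whole tissue, fewer cells of a type and less RNA per cell cannot be told apart.

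Over 8 readings (4 scans in 2 dyes), 7 of the 25 probes (28%) had a median percentile of 90 or more, where 8.40% of all spots and 7.76% of named probes did. They were Smc4-a at 99.5, Mybl2-a at 97.2, Kif11-a at 96.4, Mybl2-b at 95.2, Orc2-a at 92.4, Timeless-a at 91.0 and Mcm3-a at 90.4. Letters order the probes of a gene from the brightest down. Bub1b-a, at 84.1, lay just under this mark. The median of all 25 probes was 58.5, against 47.2 for all spots, and 46 of their 200 readings (23%) were at 0. By foreground intensity the order turned, with 44.6 for the members and 47.4 for all spots, while the same number of member probes, 7, had a median of 90 or more. The same 9 genes named through the spot number alone gave a median of 55.2, so the naming order hardly moved it. The 150 ribosomal protein probes stood at 84.8 by the reordered blocks and 51.6 by spot number. Since the block order was itself chosen on ribosomal protein brightness, that gap was built in and does not check the names.

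**Figure D1:**
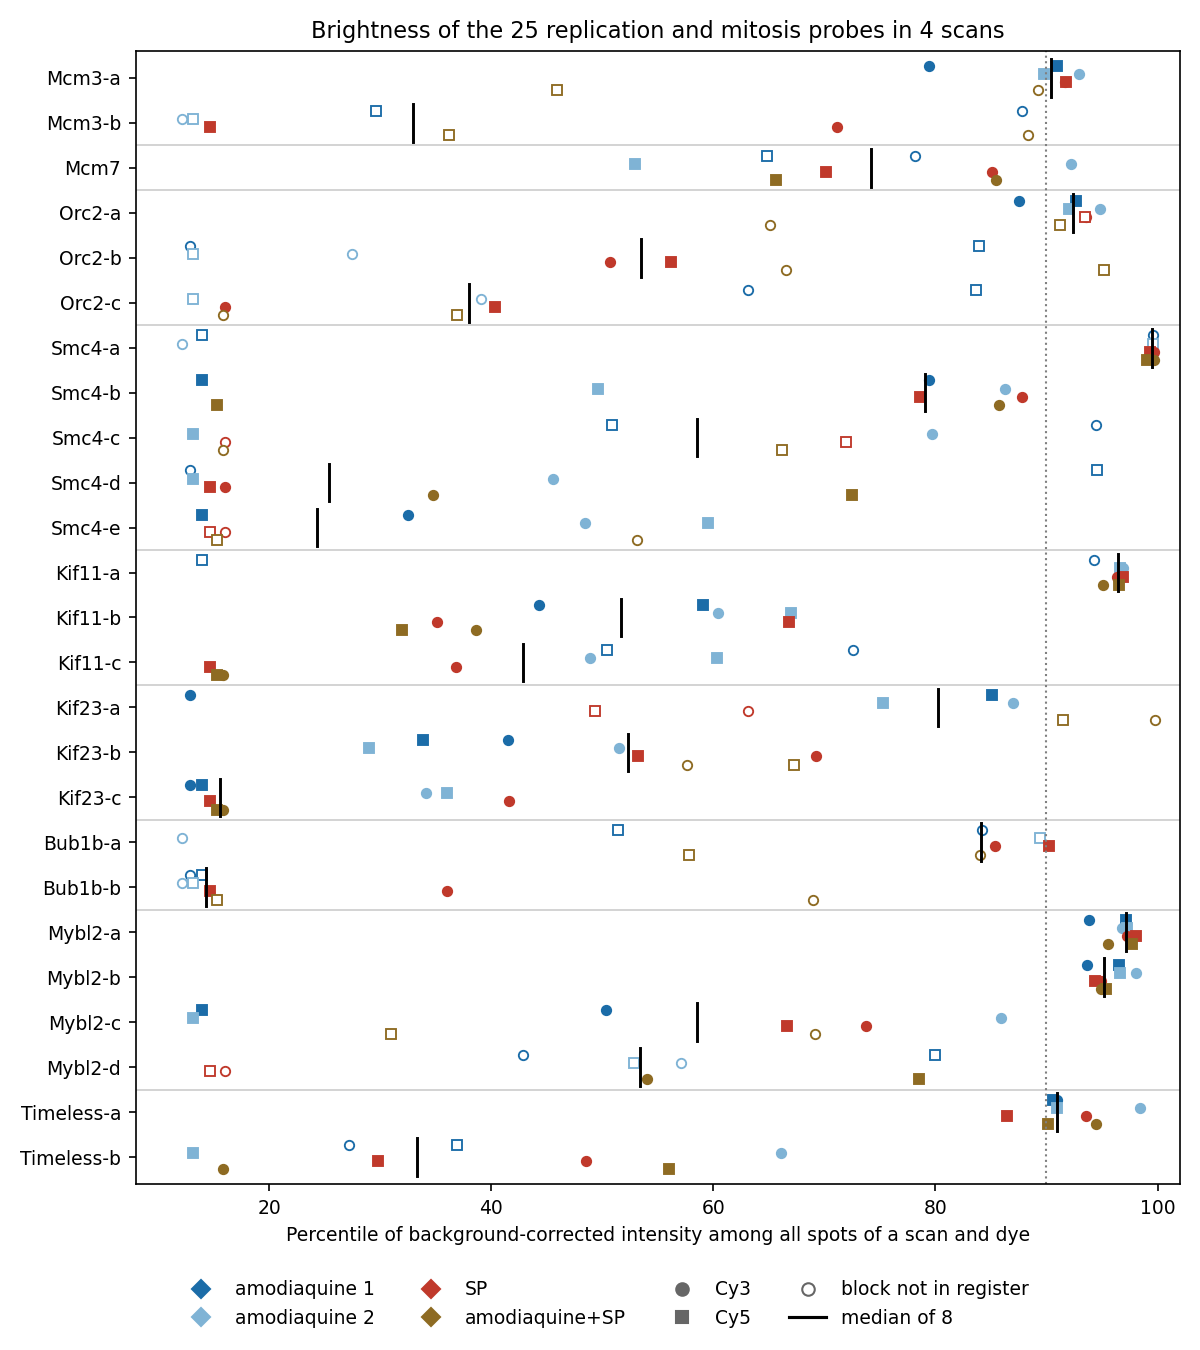
Brightness percentile of each of the 25 member probes (rows) in 4 scans (colours), with Cy3 as circles and Cy5 as squares, open where the block was not in register, and the median of the 8 readings as a black line. The readings of Mybl2-a, Mybl2-b and Timeless-a keep together at the right, Smc4-a has 2 readings and Kif11-a and Bub1b-a have 1 each under the 20th percentile, and most sister probes of a bright probe spread over the dimmer range.

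A reading counted as measured when both dyes had a signal-to-noise ratio of at least 2 over a recorded background above 0, in a block in register. Of 100 readings (25 probes in 4 scans), 20 were measured. They numbered 3 of 25 probes (12%) in amodiaquine replicate 1, 6 (24%) in amodiaquine replicate 2, 6 (24%) in SP and 5 (20%) in amodiaquine+SP. Over all spots these shares were 4.25%, 6.5%, 7.24% and 6.23%. Mybl2-a, Mybl2-b and Timeless-a were measured in all 4 scans, and 18 of the 25 probes in none. With blocks moved into frame, 23 readings had both dyes above background (4, 7, 6 and 6 by scan), where all spots gave 6.78%, 7.68%, 8.94% and 9.53%, and Smc4-a joined the probes measured in all 4 scans.

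Orc2 encodes a subunit of the origin recognition complex. Its brightest probe, Orc2-a, had a corrected Cy5 intensity of 4592 in amodiaquine replicate 1, 5102 in amodiaquine replicate 2, 4233 in SP and 3101 in amodiaquine+SP. The signal-to-noise ratio in Cy5 was 6.28, 5.08, 5.04 and 3.81, so Cy5 was above background in every scan. In Cy3 the intensities were 1153, 3396, 3733 and 363.7, and the reading in amodiaquine+SP had a signal-to-noise ratio of 0.379. The Cy3 percentile of Orc2-a was 87.5 in amodiaquine replicate 1, over a recorded background of 0. It was 94.8 in amodiaquine replicate 2, 93.6 in SP and 65.1 in amodiaquine+SP, while the Cy5 percentile was at least 91.2 in every scan. In amodiaquine+SP no displacement was found in the block, but the dyes correlated under 0.5. The second file of the amodiaquine+SP scan, in frame, read this spot at a Cy3 intensity of 2916 (91.9th percentile, signal-to-noise ratio 3.57). Its Cy5 intensity there was 3308 and its log2 ratio -0.30, so the low Cy3 reading of 363.7 was not repeated. Orc2-a counted as measured in amodiaquine replicate 2 alone. The log2 ratios by loess within blocks were 0.46, -0.15, 0.03 and 0.28. From the deposited corrected intensities they were 0.34, -0.085, -0.28 and 2.72. The authors' values, as Cy5 over Cy3, were 1.10, -0.615, -0.04 and 3.10, so the size in amodiaquine+SP depended on the processing. In SP the Cy3 grid of this block was read as displaced by 1 column, and moving it lowered the Cy3 percentile of Orc2-a from 93.6 to 69.1 and raised the log2 ratio from 0.03 to 1.96. This was the 1 bright probe for which moving a block parted readings that had agreed before. The second file of the SP scan, in frame, read this spot at a Cy3 intensity of 4007 (94.1st percentile, signal-to-noise ratio 4.72) and a log2 ratio of -0.08, close to the unmoved reading of 3733 and far from the moved one of 449. The other Orc2 probes had medians of 53.5 and 38.0. Orc2-b reached the 95.2nd percentile in Cy5 in amodiaquine+SP, with a signal-to-noise ratio of 7.28, in a block whose Cy5 grid was displaced by 1 row, and stood at 15.1 once moved.

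Mcm3 and Mcm7 encode subunits of the MCM helicase. Mcm3-a had Cy5 intensities of 3444, 3602, 3048 and 179.6 in amodiaquine replicates 1 and 2, SP and amodiaquine+SP. Its Cy3 intensities were 583.7, 2507, 2719 and 2084. The low Cy5 value came from a block with the Cy5 grid displaced by 1 row, and the moved reading stood at the 92.3rd percentile in place of 45.9, with a signal-to-noise ratio of 3.74. The log2 ratios of Mcm3-a by loess within blocks were 0.47, -0.12, -0.18 and -0.30, the last becoming 0.04 in frame. None of these passed 1.5-fold, but this depended on the processing. With loess over the whole array the value in amodiaquine replicate 1 was 0.70. From the deposited corrected intensities the value in amodiaquine+SP was -3.09. The authors' values, as Cy5 over Cy3, were 1.82, -0.61, 0.02 and -3.59. In amodiaquine replicate 1 the recorded Cy3 background was 0, as it was for Orc2-a there, and no signal-to-noise ratio can be read from such a spot. The same background was recorded there for Mcm7, Smc4-c, Smc4-d, Smc4-e, Kif11-a, Mybl2-c and Timeless-b, and for 7079 of all 23040 spots. Mcm3-b, with the same accession in the probe table, had a median of 32.9. Its Cy3 reading was above background in amodiaquine replicate 1 (87.8th percentile, signal-to-noise ratio 2.72) and in amodiaquine+SP (88.4 and 3.31), while its Cy5 signal-to-noise ratio was at most 0.093 in every scan as deposited. Mcm7 had 1 probe. Its Cy3 signal-to-noise ratio was 2.87 in amodiaquine replicate 2, 2.21 in SP and 2.01 in amodiaquine+SP, while in Cy5 it ran from 0.244 to 0.506 over the 4 scans. The Mcm7 spot was thus above background in Cy3 in these 3 scans and in Cy5 in none, and its log2 ratios, -0.38, -0.54, -0.60 and -0.17, set a weak Cy3 signal against a Cy5 signal near background.

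Timeless encodes a protein that stabilises the replication fork. Timeless-a was in register in all 4 scans and above background in both dyes in each. Its Cy3 intensities were 1803, 9724, 3705 and 4591 in amodiaquine replicates 1 and 2, SP and amodiaquine+SP, and its Cy5 intensities were 3230, 4330, 1249 and 2586. The signal-to-noise ratio was 7.38, 14.6, 4.26 and 5.93 in Cy3 and 4.39, 5.34, 2.23 and 2.04 in Cy5. The normalised log2 ratios were -1.13, -1.88, -1.34 and -0.64, so the Cy3 side was the higher in every scan, although amodiaquine was labelled Cy5 in replicate 1 and Cy3 in replicate 2. With loess over the whole array in place of loess within blocks, the value in amodiaquine replicate 1 was -0.05 and the others were -2.07, -1.39 and -0.53. Turned to amodiaquine over vehicle, the replicates gave -1.13 and 1.88, a mean of 0.38 ± 2.12 (SD, n = 2), and they fell on opposite sides of 0. Timeless-b had a median percentile of 33.4 and no reading above background.

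Mybl2 encodes B-Myb, a transcription factor that switches on genes of the later cell cycle. It was the 1 member with 2 probes measured in every scan. Mybl2-a had Cy3 intensities of 2880, 5288, 8506 and 5672 and Cy5 intensities of 12940, 16310, 14290 and 15130 in amodiaquine replicates 1 and 2, SP and amodiaquine+SP. Its signal-to-noise ratio ran from 8.79 to 12.0 in Cy3 and from 18.7 to 33.6 in Cy5. All 8 readings lay between the 93.9th and 98.1st percentiles. The log2 ratios of Mybl2-a were 1.22, 0.41, 0.15 and 0.77, on the Cy5 side in every scan and also with loess over the whole array (1.02, 0.47, 0.33 and 0.92). Mybl2-b, which the table links to other accessions, had Cy3 intensities of 2814, 8037, 4705 and 4992 and Cy5 intensities of 10930, 13360, 5114 and 7627. Its log2 ratios were -1.01, -0.09, -0.11 and -0.04 within blocks. Over the whole array they were 0.84, -0.44, -0.14 and 0.17, so the sign in amodiaquine replicate 1 and in amodiaquine+SP turned with the normalisation. In amodiaquine replicate 1 the probes of this 1 gene thus stood at 1.22 and -1.01 within blocks and at 1.02 and 0.84 over the whole array. Mybl2-b and Timeless-a share block 26, and both of their values in amodiaquine replicate 1 were lower by over 1 log2 unit when that block was normalised by itself. Turned to amodiaquine over vehicle, Mybl2-a gave 0.40 ± 1.15 (SD, n = 2) and Mybl2-b gave -0.46 ± 0.78 (SD, n = 2). Mybl2-c and Mybl2-d, with medians of 58.5 and 53.4, had no reading above background.

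Smc4 encodes an ATPase subunit common to the condensin complexes. Smc4-a was the brightest member spot and lay in the last row of its block. In SP its intensities were 30130 in Cy3 and 29700 in Cy5, and in amodiaquine+SP they were 32550 and 30120, with signal-to-noise ratios from 28.9 to 51.7. In amodiaquine replicate 1 the Cy3 intensity was 23940 and the Cy5 intensity 0. In amodiaquine replicate 2 the Cy3 intensity was 0 and the Cy5 intensity 75200. The amodiaquine arrays thus each had 1 dye at 0 and the other above the 99th percentile, and the log2 ratios as deposited were -6.11 and 1.41 in replicates 1 and 2, against -0.30 in SP and -1.35 in amodiaquine+SP. By the labels the dye at 0 held the amodiaquine RNA on both arrays.

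The block of Smc4-a was displaced by 1 row in Cy5 in amodiaquine replicate 1 and by 1 row in Cy3 in amodiaquine replicate 2. In the row before the Smc4-a position, the Cy5 intensity in replicate 1 was 56320 and the Cy3 intensity in replicate 2 was 11760. Once moved, these readings put Smc4-a at the 99.6th percentile in both dyes in replicate 1 and at 98.8 and 99.6 in replicate 2, and the signal-to-noise ratios became 74.4 and 20.2 in the moved dyes. The log2 ratios in frame were -0.12 and -0.16, and turned to amodiaquine over vehicle they gave 0.02 ± 0.19 (SD, n = 2). Ratios computed here with blocks as deposited gave -3.76 ± 3.32 (SD, n = 2), and -5.88 ± 0.12 (SD, n = 2) with loess over the whole array. With both changes, blocks in frame and loess over the whole array, the mean was -0.68 ± 0.53 (SD, n = 2). The large ratio of Smc4-a was therefore present as deposited and not after the block had been moved.

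**Figure D2:**
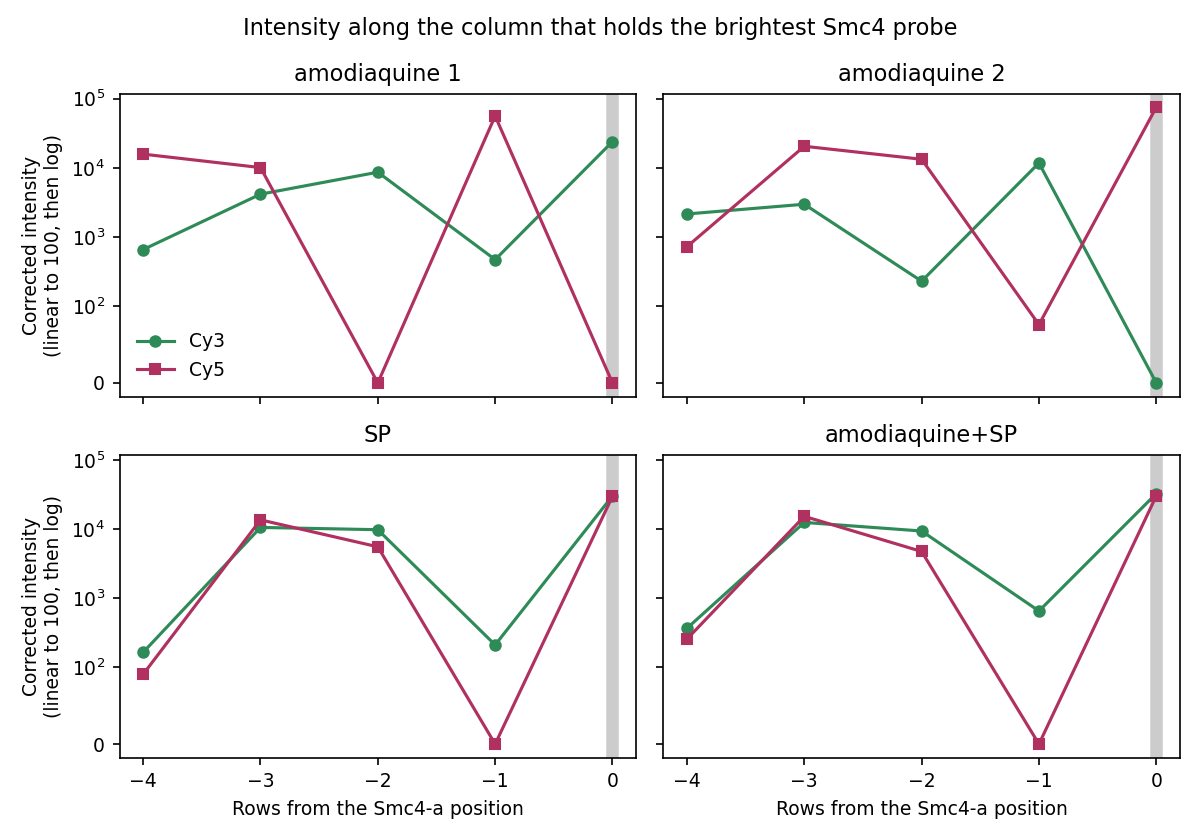
Background-corrected intensity (vertical axis, linear to 100 and logarithmic above) in the last 5 rows of the column that holds Smc4-a, whose deposited position is the grey bar at 0, for each scan and dye. In SP and amodiaquine+SP both dyes peak at the grey bar, while Cy5 peaks 1 row earlier in amodiaquine replicate 1 and Cy3 peaks 1 row earlier in amodiaquine replicate 2.

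The other 4 Smc4 probes were dimmer. Smc4-b, in register in all 4 scans, had a median of 79.1, with a Cy3 signal-to-noise ratio of 2.30, 1.36, 2.28 and 1.97 in amodiaquine replicates 1 and 2, SP and amodiaquine+SP and at most 1.01 in Cy5. Smc4-c, Smc4-d and Smc4-e had medians of 58.5, 25.4 and 24.3. In amodiaquine replicate 1 the log2 ratio of Smc4-c was -2.08 and that of Smc4-d was 3.75, opposite in sign, and each lay in a block where 1 dye was displaced. In frame they were -0.11 and 0.01. The frame of the blocks of Smc4-c and Smc4-e was shared by only 5 of 8 readings, under the 6 taken as settled, as it was for Kif23-a, and by 4 for Orc2-c.

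Kif11 encodes the motor that pushes the spindle poles apart. Kif11-a had Cy3 intensities of 3096, 5529, 6611 and 5269 in amodiaquine replicates 1 and 2, SP and amodiaquine+SP, and Cy5 intensities of 0, 13380, 10080 and 10740. The single 0 came from a Cy5 grid displaced by 1 column in amodiaquine replicate 1, and the moved reading had a signal-to-noise ratio of 10.1 and stood at the 95.9th percentile. The log2 ratios as deposited were -2.75, 0.85, 0.38 and 0.71. In frame the first became 0.98, so that all 4 scans then read higher in Cy5. The Cy3 background recorded in amodiaquine replicate 1 was 0, so both dyes counted as above background in frame in only 3 scans. With loess over the whole array the framed values were 0.52, 0.11, 0.22 and 0.56. Turned to amodiaquine over vehicle, the framed values gave 0.06 ± 1.30 (SD, n = 2). Kif11-b, in register in all scans, had a signal-to-noise ratio under 2 in all 8 readings, and Kif11-c lay at a median of 42.8.

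**Figure D3:**
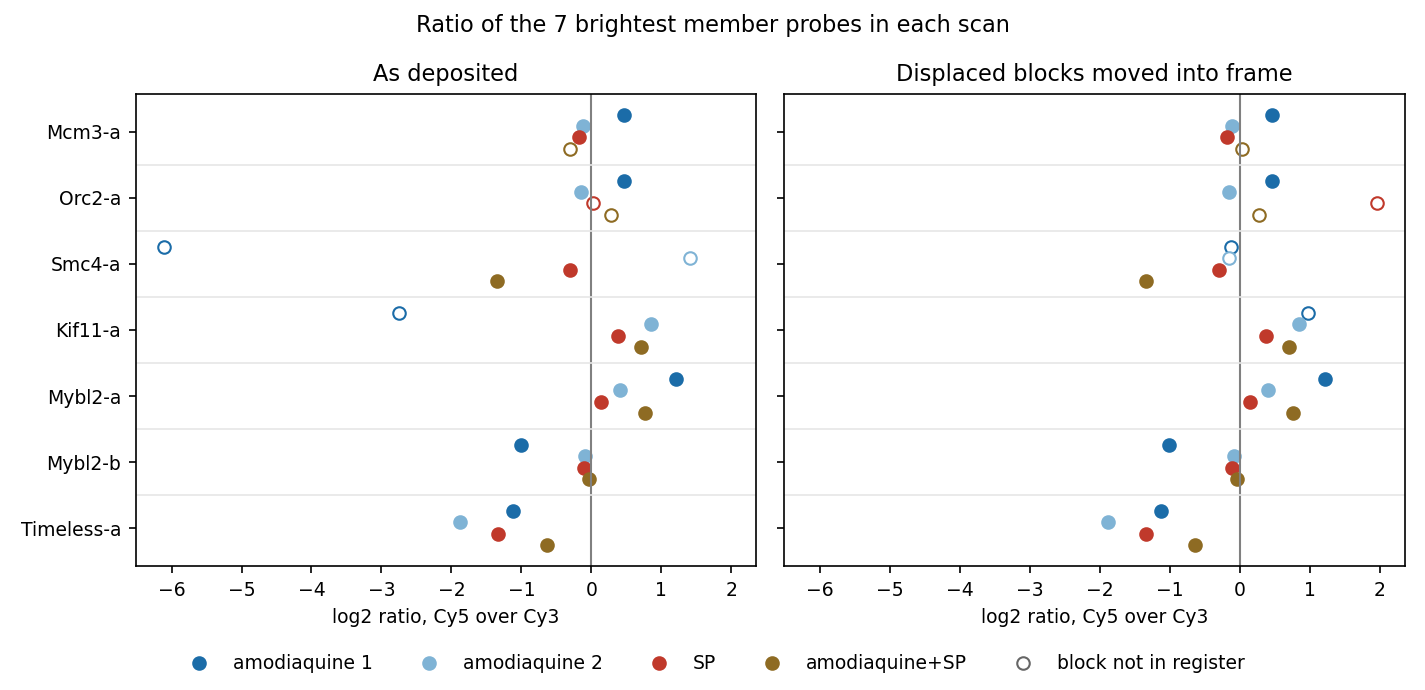
Log2 ratio of Cy5 over Cy3 (horizontal axis, loess within blocks) of the 7 member probes with a median brightness percentile of at least 90, in 4 scans, as deposited on the left and with displaced blocks moved into frame on the right, open where the block was not in register. The values of Smc4-a at -6.11 and Kif11-a at -2.75 on the left move to -0.12 and 0.98 on the right, and Orc2-a in SP moves from 0.03 to 1.96.

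Kif23 encodes a kinesin of the spindle midzone that is needed for the final separation of daughter cells. Kif23-a had Cy3 percentiles of 12.9, 87.0, 63.1 and 99.8 and Cy5 percentiles of 85.1, 75.3, 49.3 and 91.5 in amodiaquine replicates 1 and 2, SP and amodiaquine+SP. The brightest reading, a Cy3 intensity of 38850 in amodiaquine+SP with a signal-to-noise ratio of 47.4, stood far above the Cy3 readings of the other scans. It gave a log2 ratio of -4.60. Both dyes of that block were displaced by 1 column in amodiaquine+SP, and in frame the spot had Cy3 and Cy5 percentiles of 15.8 and 71.1 and a log2 ratio of 0.06. Kif23-b and Kif23-c had medians of 52.4 and 15.6 and no reading above background, and Kif23-c was in register in all 4 scans. With blocks in frame, no Kif23 reading was above background in either dye.

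Bub1b encodes a kinase of the spindle checkpoint. Bub1b-a had Cy5 percentiles of 51.4, 89.4, 90.2 and 57.8 in amodiaquine replicates 1 and 2, SP and amodiaquine+SP. The Cy5 grid was displaced by 1 row in the 2 scans with the lower values, and in frame they became 90.2 and 89.4, so that all 4 scans lay within 1 percentile of each other in Cy5. The Cy5 signal-to-noise ratio in frame was above 2 in every scan, up to 4.66 in amodiaquine replicate 1. In Cy3 the percentiles were 84.2, 12.1, 85.3 and 84.0 and the signal-to-noise ratio was at most 1.45. Bub1b-a was thus above background in Cy5 and in no scan in Cy3, the reverse of Mcm7. Bub1b-b, in the same block, had a median of 14.3.

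Probes of 1 gene differed widely in brightness. The gap between the medians of the brightest and the dimmest probe was 57.5 for Mcm3, 54.4 for Orc2, 75.2 for Smc4, 53.6 for Kif11, 64.6 for Kif23, 69.8 for Bub1b, 43.8 for Mybl2 and 57.6 for Timeless. It passed 50 in 7 of the 8 members with several probes, against 23.1% of 3549 genes with several probes on the array. Members were taken for their bright spots, so nothing is read from that contrast. Over all genes the median gap was 22.2 with 2 probes and 50.3 with 5, and the brightness of paired probes correlated at r = 0.125 over 10510 pairs, which share scans and may share accessions. Except for Mybl2-b, all probes of a member carried the same accession in the table.

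Each shift was chosen for agreement of the whole block with the other readings, so closer readings in frame are in part built in. Over the 7 probes with a median of 90 or more, the median distance between the highest and lowest of the 8 readings was 29.8 percentile points as deposited and 4.39 in frame. It became narrower by more than 1 point for 3 of them (Smc4-a, Kif11-a and Mcm3-a) and wider for 0, and the other 4 stayed within 1 point. Over all 25 probes the median distance was 58.0 as deposited and 53.6 in frame, narrower for 8 and wider for 3.

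The comparison of amodiaquine with vehicle was fitted in limma over all probes that had a signal-to-noise ratio of at least 2 in 1 dye or more on both arrays. No member was called. Of 3020 probes tested, 0 (0%) had an adjusted p under 0.05, the smallest being 0.63, and 81 (2.68%) had an unadjusted p under 0.05. Of the 25 member probes 6 passed the filter (Mcm3-a, Orc2-a, Smc4-a, Mybl2-a, Mybl2-b and Timeless-a), of which 0 were called and 0 had an unadjusted p under 0.05. In that fit Mcm3-a stood at 0.29 ± 0.55 (SE) and Orc2-a at 0.31 ± 0.55 (SE), log2 of amodiaquine over vehicle, and both were above 0 on both arrays by less than their SE. Loess over the whole array called 17 probes (0.563%), 1 of them Smc4-a at -5.88 ± 1.15 (SE, limma adjusted p = 0.00247). With blocks moved into frame Smc4-a stood at 0.02 ± 0.54 (SE, limma adjusted p = 0.9999), and with both changes it stood at -0.68 ± 1.19 (SE) and was not called. Loess over the whole array also moved the median of all tested probes from 0.03 to -0.23 and the share below 0 from 47.0% to 62.7%. The limma fit was also run on 3020 simulated probes with the spread of the amodiaquine pair under loess within blocks. It called 1 of 50 probes changed by a log2 of 2, and 2 of 50 at 4. At 6 it called 30 of 50, and at 8 it called 47 of 50. A count of 0 therefore does not show that no probe changed.

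Per scan, probes measured in both dyes were counted past 1.5-fold. In amodiaquine replicate 1, 1 of 3 measured members was past it toward Cy5 (Mybl2-a) and 2 toward Cy3 (Mybl2-b and Timeless-a), where all measured probes gave 15.6% and 25.4%. In amodiaquine replicate 2, 1 of 6 was past it toward Cy5 (Kif11-a) and 1 toward Cy3 (Timeless-a), against 14.2% and 23.3%. In SP, 0 of 6 were past it toward Cy5 and 1 toward Cy3 (Timeless-a), against 5.34% and 15.4%. In amodiaquine+SP, 2 of 5 were past it toward Cy5 (Kif11-a and Mybl2-a) and 2 toward Cy3 (Smc4-a and Timeless-a), against 7.53% and 10.7%. These counts use loess within blocks, where members past 1.5-fold in several scans were past it on the same dye side in each. With loess over the whole array, Mybl2-b in amodiaquine replicate 1 stood at 0.84, toward Cy5. Timeless-a (-0.05 in amodiaquine replicate 1, -0.53 in amodiaquine+SP) and Kif11-a (0.16 in amodiaquine replicate 2, 0.55 in amodiaquine+SP) then fell under 1.5-fold. The other members counted here stayed past it on the same side. With counts this small no share is read against the background.

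Over the 400 probes measured in register on both amodiaquine arrays, the unturned ratios correlated at r = 0.771 across probes, which share the dyes and the 2 arrays. Past 1.5-fold, 0 of the 400 (0%) pointed the same way after turning to amodiaquine over vehicle, while 30 read higher in Cy5 and 86 higher in Cy3 on both arrays. The 3 members among the 400 were Mybl2-a, higher in Cy5 on both arrays, and Mybl2-b and Timeless-a, higher in Cy3 on both within blocks, though Mybl2-b turned to Cy5 in replicate 1 with loess over the whole array. With blocks in frame the values were r = 0.689 over 734 probes, of which 4 (0.545%) pointed the same way after turning, and 0 of the 4 members among them did.

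**Figure D4:**
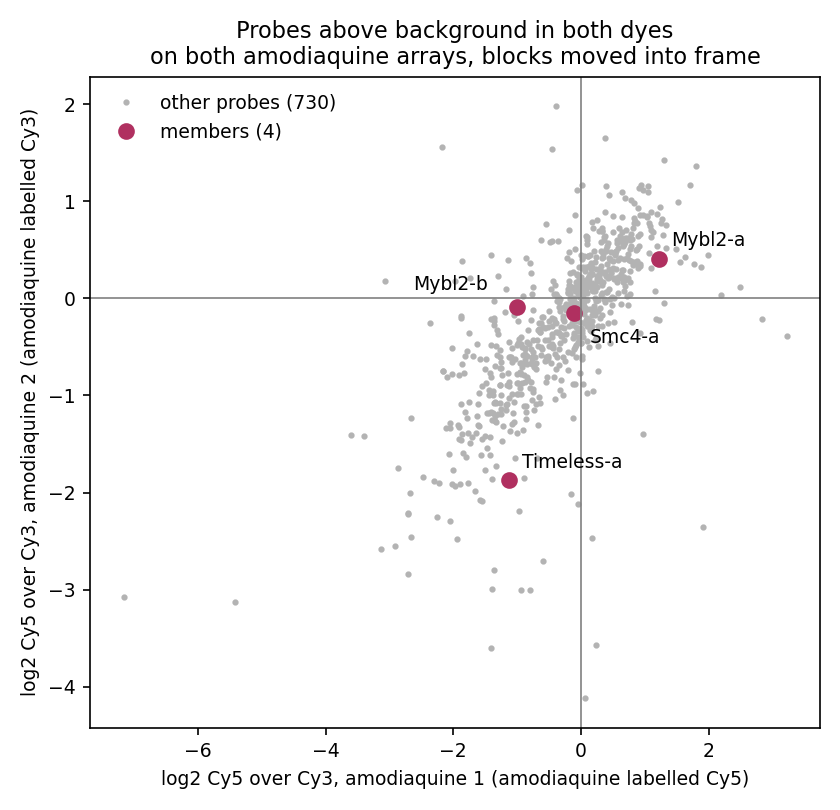
Log2 ratio of Cy5 over Cy3 in amodiaquine replicate 1 (horizontal) against amodiaquine replicate 2 (vertical) for 734 probes above background in both dyes on both arrays, with displaced blocks moved into frame and the 4 members in red. Probes with the same direction after turning to amodiaquine over vehicle would lie at the upper left or the lower right. The members lie at the lower left or upper right, where the same dye is higher on both arrays. Smc4-a lies near the centre, at -0.12 and -0.16, and its side is not settled. With loess over the whole array it stood at -0.31 and 1.05 in frame.

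Other genes of replication and mitosis were taken as a list of 133, of which 118 were on the array with 200 probes. Their median percentile was 43.1, against 47.2 for all spots, and 8 of the 200 probes (4%) had a median of 90 or more. In 56 of the 118 genes even the brightest probe lay under 50. The brightest were Tyms, which makes thymidylate, at 98.8, the clamp loader subunit Rfc1 at 98.4 by 1 of its 4 probes, the Myb family gene Mybl1 at 93.5, the mitotic transcription factor Foxm1 at 93.1 and the DNA polymerase epsilon subunit Pole2 at 93.0. The Tyms and Rfc1 spots share block 16, whose Cy5 grid was displaced by 1 row in amodiaquine replicate 1 and in SP. In amodiaquine+SP no displacement was found there, but the dyes correlated at 0.436, so the block was not in register. Each of these spots was measured in 1 scan. The log2 ratios of Tyms were -6.98, -1.30, -5.28 and -2.79 in amodiaquine replicates 1 and 2, SP and amodiaquine+SP, and in frame the values of the displaced scans became -0.68 and -0.26. Those of the bright Rfc1 probe were -5.80, -0.05, -3.35 and 0.95, and in frame the same scans gave 1.31 and 0.21. Mybl1 ran from 0.06 to 0.82 and Foxm1 from 0.12 to 0.78. Pole2 was measured in 3 scans and had log2 ratios of 0.12, -0.47, -0.73 and -0.37 in the same order. The chromosome kinesin Kif4 at 15.0, the survivin gene Birc5 at 15.0 and the clamp loader subunit Rfc5 at 14.3 were the genes whose brightest probe was dimmest, with E2f1, named after its value was seen, tied with Kif4 and Birc5. None of the 200 probes was measured in both dyes in register on both amodiaquine arrays. Of 19 probes of 18 list genes that entered the limma fit, 0 were called and 1 had an unadjusted p under 0.05, and their median log2 value was -0.12, against 0.03 for all probes tested. This sign turned to 0.06 (0.01 for all probes) with blocks in frame and to 0.52 (0.08) in the authors' values.

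**Figure D5:**
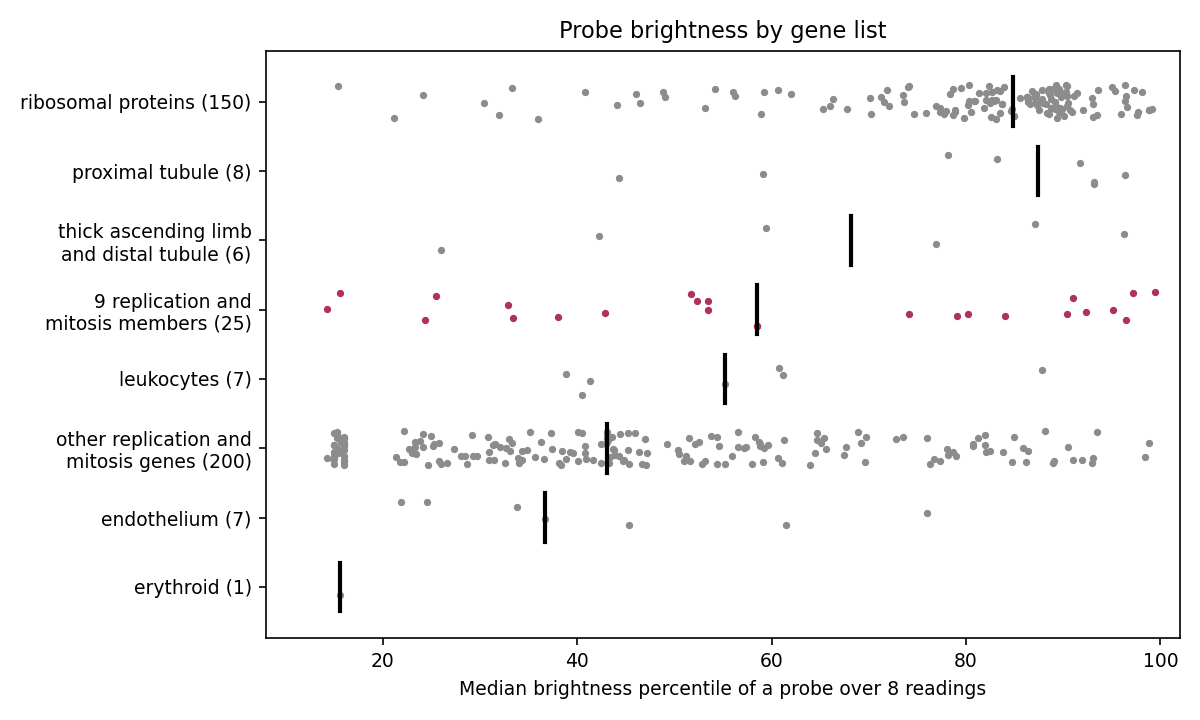
Median brightness percentile over 8 readings (horizontal axis) of each probe in 8 gene lists, with the number of probes in brackets and the median of the list as a black line. The member probes in red spread from 14.3 to 99.5 with a median of 58.5, the other replication and mitosis genes centre on 43.1, and ribosomal protein and proximal tubule probes centre on 84.8 and 87.5.

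The labelled tissue was set against marker lists under the same naming. The 8 proximal tubule probes had a median percentile of 87.5, with 4 at 90 or more, and the 6 probes of thick ascending limb and distal tubule had a median of 68.2. Leukocyte, endothelial and erythroid probes (7, 7 and 1) had medians of 55.3, 36.7 and 15.6, with 0 of the 15 at 90 or more, and their part in the brightness of the members was not tested.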

How the data were processed

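Kidney RNA (25 ug per sample, per the labels) was hybridised to 6 two-colour arrays by the labels, whose files hold 4 distinct scans. Arrays were scanned with ImageQuant 5.0 and measured in ArrayVision 8.0, per the series' design text. The deposited files give foreground, background and corrected intensity per spot and dye, not normalised by the authors, and a deposited signal-to-noise ratio. The authors' deposited table holds log2 ratios after LOWESS in Avadis 4, and was used as an alternative. The sources used here give no genome build for the probes.

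Names came from the platform's probe table, with symbols updated through RefSeq (GRCm38.p6), and with blocks reordered as earlier brightness of ribosomal protein probes had shown to fit. They are inferred. Several genes were listed for 206 probes, and 7720 spots had none. The members, lists and tests were chosen with earlier results of these data known.

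Intensities were corrected with normexp (offset 50) and normalised by loess within blocks in limma 3.58.1 under R 4.3.3. The amodiaquine pair was fitted with 1 residual degree of freedom and Benjamini-Hochberg adjustment over all tested probes. Displacement was found per block and dye by setting foreground ranks against the mean of the other readings of the 4 scans, at up to 3 rows or columns, and the commonest placement was the frame. Moving blocks into frame was added after seeing the data. Scripts were tested on simulated data. Named genes were all members, and from the list the 5 brightest and 3 dimmest genes and any measured on both amodiaquine arrays.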

Additional observations from a re-analysis of the deposited data

How the results depend on the processing

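The count of probes called for amodiaquine (0 in limma) was 17 with loess over the whole array and 1 when this was joined to blocks moved into frame, and the count of member probes called (0) was 1 with loess over the whole array. It was 0 in every other fit: deposited background-corrected intensities, no filter, a background of 0 counted, blocks in register, all 6 files with a dye term, the authors' values and blocks in frame. The fit of all 6 files counted both files of 1 scan as separate arrays, so its spread came partly from repeated readings. No fit without an amodiaquine replicate was run, since 1 array leaves no residual degrees of freedom. No paired analysis was possible because the replicate number marks the dye and not a shared animal, and each array is itself a comparison within a pair of dyes. The median brightness of member probes (58.5) was 44.6 by foreground intensity, under that of all spots (47.4), and 55.4 to 59.8 without 1 scan, and the count of measured readings (20) was 14 to 17 without 1 scan. The median log2 ratio of member probes, mostly dim spots, moved beyond its SD over scans (0.07) as follows. In amodiaquine replicate 1 (-0.004) it was 0.99 in the authors' values and 0.068 in blocks in register, and in replicate 2 (-0.15) it was -0.59 in the authors' values. In SP (-0.11) it was -0.24 with deposited corrected intensities, -0.23 in the authors' values, -0.23 in register and 0.018 in the second file. In amodiaquine+SP (-0.02) it was -0.40 with deposited corrected intensities, -0.99 in the authors' values and -0.12 in the second file. The cause of these moves was not tested. The ratios are limited in that 18 of 25 probes were measured in both dyes, in register, in no scan.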
